A study of Mus musculus with 25 samples.

Results

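The miR-34 and miR-449 family was represented in the deposited table of sperm RNA by 6 genes, Mir34a, Mir34b, Mir34c, Mir449a, Mir449b and Mir449c. They were picked by symbol, with earlier results of these data known, from 24358 genes of which 1157 were microRNA genes, and all 6 had a valid estimate in every condition. The RNA came from sperm of the cauda epididymis of mice aged 14 weeks, with 5 libraries in each of 5 conditions and 25 in all. C57.CTL.F1 and FVB.CTL.F1 were C57BL/6J and FVB/N males whose mothers received corn oil vehicle in pregnancy, on embryonic days 9 to 19. C57.D300.F1 and FVB.D300.F1 were males of the same strains whose mothers received 300 mg/kg/day of di-(2-ethylhexyl) phthalate (DEHP), a plasticizer with endocrine disrupting activity, over the same days. C57.D300.F2 was the second generation of the exposed C57BL/6J lineage, for which no vehicle lineage was measured. The 10 libraries of the C57BL/6J F1 males, exposed or not, were carried over from an earlier experiment and the other 15 were new. A difference between FVB/N or C57.D300.F2 and these F1 conditions of C57BL/6J therefore cannot be told apart from a difference between the library sets. The comparison of DEHP with vehicle inside a strain stays within 1 set.

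The table gives 1 estimated fragment count per gene and condition, which combines the 5 libraries. It was scaled between libraries by the authors' software and was not divided by gene length. No spread between mice can be computed from it, so no comparison below has a replicate check and none has a p-value. The error given with a count is the SD of Cuffdiff's model. A log2 ratio was formed after adding 1 to each count, and a gene was counted as past the threshold at 2 log2 units with at least 10 counts in 1 of both conditions. The limit of detection was set at 3 counts, for counting error only. Where 5 values are listed, they follow the order vehicle F1, DEHP F1 and DEHP F2 for C57BL/6J, then vehicle F1 and DEHP F1 for FVB/N. The counts summed to between 6921688 and 8602900 per condition, and those of the microRNA genes to between 66713 and 188529.

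MicroRNAs are short RNAs cut from hairpin precursors, and they lower the stability and translation of messages that pair with their seed, the stretch near the 5′ end. The miR-34 and miR-449 families share that seed and are encoded at 3 loci. Mir34a is known as a target of the p53 tumour suppressor in many tissues, whereas Mir34b, Mir34c and the Mir449 genes are known for their expression in meiotic and postmeiotic male germ cells and in cells that carry many motile cilia. They act redundantly in spermatogenesis and in the assembly of motile cilia. miR-34c is among the microRNAs known to be carried by mature mouse sperm.

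The sequences show what the family shares, and they were taken from RefSeq on GRCm38.p6. Of the 6 genes, 5 had an entry there, with 9 mature arms and 5 hairpins. The capitals mark bases 2 to 8 of a mature arm, its seed.
miR-34a-5p: uGGCAGUGucuuagcugguugu
miR-34b-5p: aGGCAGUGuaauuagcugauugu
miR-449a-5p: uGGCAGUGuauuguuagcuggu
miR-449c-5p: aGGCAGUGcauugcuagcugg
These 4 arms were the only ones with the seed GGCAGUG among 1738 mature mouse entries of the same set, which lists neither miR-34c-5p nor Mir449b. The 3′ arms of Mir34b and Mir34c had another seed in common, AUCACUA, which no other entry carried.
miR-34b-3p: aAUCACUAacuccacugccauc
miR-34c-3p: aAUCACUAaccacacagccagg

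Most of the results turn on the hairpins of Mir34c and Mir34b, and in both the family seed, in capitals, stands near the 5′ end, from base 14 in Mir34c and from base 15 in Mir34b.
Mir34c hairpin: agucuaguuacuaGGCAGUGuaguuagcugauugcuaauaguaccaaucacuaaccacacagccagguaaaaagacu
Mir34b hairpin: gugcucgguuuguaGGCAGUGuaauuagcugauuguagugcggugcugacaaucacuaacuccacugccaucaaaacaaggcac
The Mir34c hairpin lies on the minus strand at chr9:51103034-51103110 of GRCm38 and is 77 bases long, and the Mir34b hairpin lies on the same strand at chr9:51103562-51103645 and is 84 bases long. In GENCODE M21 they are 452 bases apart, within an intron of Btg4, which is encoded on the opposite strand. Aligned without gaps, the 23 bases of miR-34b-5p differed from the Mir34c hairpin at 2 positions at the best placement, and the longest run shared by both hairpins was 11 bases. The table does not separate the arms or the precursor from the mature RNA.

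Mir34c was the member with the highest level, and its level split the conditions by strain. It had 408 counts in C57.CTL.F1 (model SD 129), 543 in C57.D300.F1 (model SD 144) and 534 in C57.D300.F2 (model SD 135). In FVB/N it had 13.7 counts with vehicle and 12.7 with DEHP, with model SDs of 6.00 and 5.83. The 3 conditions of C57BL/6J were all high, both FVB/N conditions were low, and the lowest value of the first strain lay above the highest of the second. In order of level, C57.D300.F1, C57.D300.F2 and C57.CTL.F1 were followed by FVB.CTL.F1 and FVB.D300.F1, and neighbours in that order differed by less than the model SD of their difference, except across the step between the strains.

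**Figure D1:**
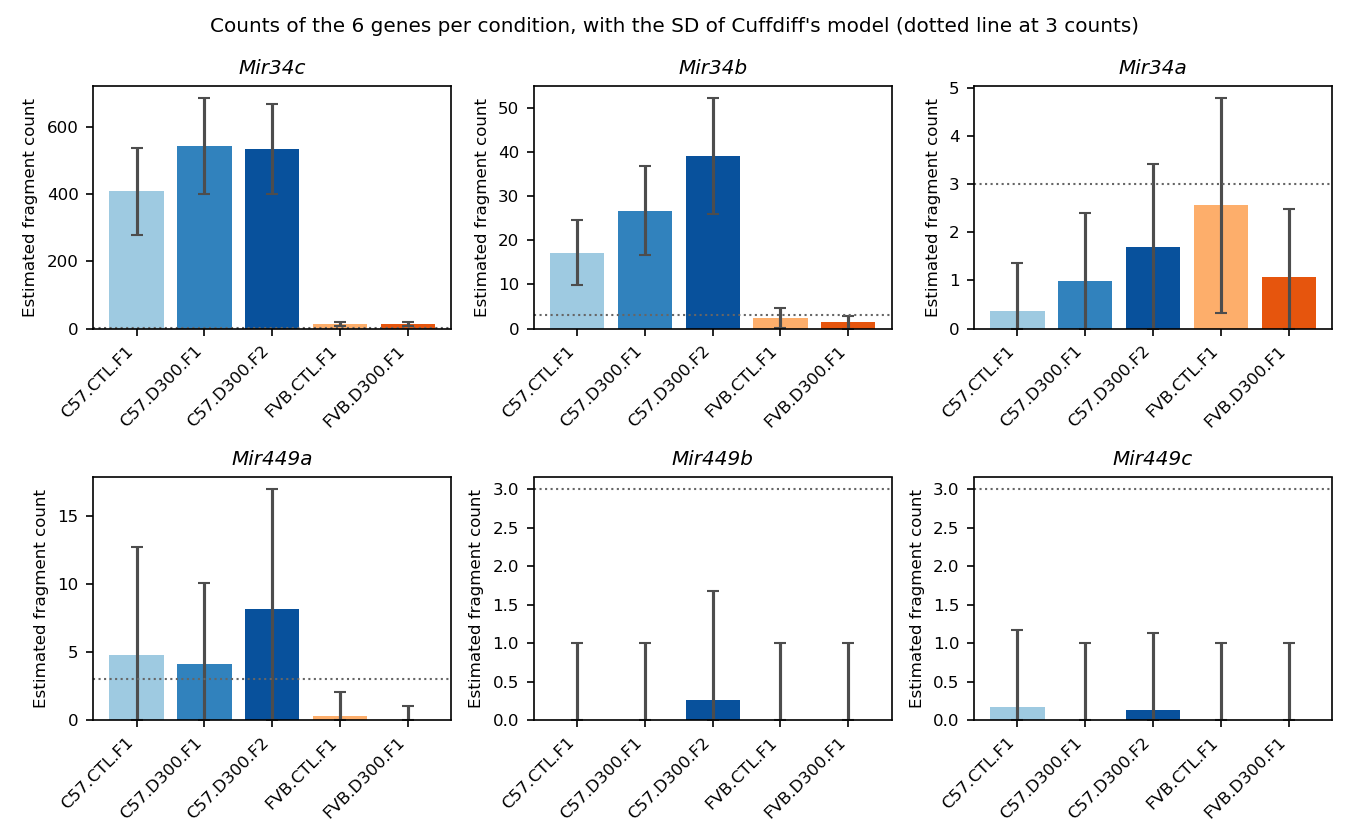
Estimated fragment counts of the 6 genes (vertical axes, linear, each with its own range) in the 5 conditions (horizontal axes). Bars are the condition values, error bars the SD of Cuffdiff's model cut off at 0, and the dotted line marks 3 counts. Mir34c had between 408 and 543 counts in C57BL/6J and 12.7 to 13.7 in FVB/N, and Mir34a, Mir449b and Mir449c lay under the dotted line throughout.

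Mir34b, the neighbour of Mir34c, followed the same split at a lower level. In C57BL/6J it had 17.2 counts with vehicle (model SD 7.35), 26.7 with DEHP in F1 (model SD 10.1) and 39.2 in F2 (model SD 13.2). In FVB/N it had 2.36 with vehicle and 1.41 with DEHP. Both FVB/N values were under the limit of detection. Per 100 bases of hairpin, Mir34c had 530 counts and Mir34b 20.4 in C57.CTL.F1, 26 times as many. That ratio of counts per base was 22.2 with DEHP in F1 and 14.8 in F2. Before division by length the counts in C57.CTL.F1 were 408 and 17.2. Since arms and precursor are not separated, hairpin length may not be the right divisor. Mir34c alone made up between 91.5% and 94.8% of the counts of all 6 genes in C57BL/6J.

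Mir34a was near 0 in every condition, with 0.358, 0.981 and 1.69 counts in the conditions of C57BL/6J and 2.56 and 1.07 in those of FVB/N. It was the one member whose highest value came from an FVB/N condition, but all 5 values were at or under 3 counts and their order cannot be read. Its hairpin lies on the plus strand at chr4:150068454-150068555, where GENCODE M21 has an exon of Gm37795, a transcript still to be experimentally checked. Gm37795 was not found in the table.

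The Mir449 genes lie on the plus strand of chromosome 13 within Cdc20b, a relative of a cell cycle activator, at chr13:113035983-113036091 for Mir449c, chr13:113037419-113037498 for Mir449b and chr13:113037534-113037624 for Mir449a. Mir449a had 4.79, 4.14 and 8.12 counts in C57BL/6J and 0.312 in FVB/N with vehicle, and it was listed at 0 in FVB/N with DEHP. It was above 3 counts in C57BL/6J and not in FVB/N, and each of its counts was smaller than its own model SD (7.93, 5.89, 8.83, 1.73 and 1.00 in that order). Mir449b was listed at 0 in 4 conditions and had 0.257 counts in C57.D300.F2. Mir449c was listed at 0 in 3 conditions and did not exceed 0.168. At this depth the Mir449 genes gave no value of at least 10 counts, so they entered no comparison against the threshold, and a difference between the conditions was not detectable for Mir449b and Mir449c.

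The genes at the loci did not share one pattern. Cdc20b, which hosts the Mir449 genes, had 17.4, 15.5 and 8.65 counts in C57BL/6J and 6.19 and 7.94 in FVB/N. These values lay within 2 log2 units of each other in every comparison made. Btg4, an adaptor for message decay in the oocyte to embryo transition and the gene opposite Mir34b and Mir34c, had 12.0, 8.69, 4.08, 0.614 and 1.86 counts, and was lower in FVB/N by 3.01 log2 units without DEHP, where its count was under the limit of detection. The uncharacterised gene 4833427G06Rik, which starts 956 bases from Mir34c on its own strand, had 19.2, 26.2, 13.2, 6.33 and 5.63 counts. These 3 genes had lower values in both FVB/N conditions than in any of C57BL/6J, while others at the loci were higher there. Gpx8, on the other strand 5129 bases from Mir449a, had 53.3, 61.4, 78.4, 91.8 and 142 counts, and Gpr157, which lies 18810 bases from Mir34a, had 218, 213, 257, 351 and 335. Ccno had 75.3, 64.3, 63.3, 152 and 183 counts and Mcidas 19.9, 16.9, 17.0, 43.0 and 53.4, both on the chromosome of the Mir449 genes. 2310030G06Rik, farther along the chromosome of Mir34c, had between 61.4 and 80.1. The sequenced strand was used in mapping, while its use in counting is not given, so reads of Btg4 and of the hairpins on the other strand may not be fully separated.

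DEHP against vehicle in F1 males was the first question of the design. In C57BL/6J, Mir34c was higher with DEHP by 0.41 log2 units and Mir34b by 0.61, and neither difference of 135 and 9.54 counts exceeded its model SD of 194 and 12.5. No member passed the threshold, which 0.291% of the 16825 genes tested did. The median of the 2 members tested was 0.51, beside -0.01 for all genes and 0.14 for 113 microRNA genes, of which none was higher and 2 were lower by the threshold. As a ratio of whole counts, Mir34c was 1.33-fold higher with a 95% Clopper-Pearson interval of 1.17 to 1.52, which covers counting error only and not the spread between mice. The interval treats scaled and combined estimates as if they were read totals, so it is approximate. That it leaves out 1 does not show a change, as the difference stayed within its model SD.

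In FVB/N, only Mir34c had enough counts for the same comparison. Its log2 ratio of DEHP over vehicle was -0.10, and its 13.7 and 12.7 counts differed by 0.966, with a model SD of the difference of 8.37. The threshold was passed by 0.68% of 16471 genes. The 102 microRNA genes tested had a median log2 ratio of 0.47, with 0 past the threshold. With 14 and 13 whole counts the ratio of vehicle to DEHP was 1.08, with a counting interval of 0.469 to 2.49, so a change within these bounds was not detectable.

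The strain by exposure difference, the log2 ratio with DEHP in FVB/N minus that in C57BL/6J, was -0.51 for Mir34c and -1.09 for Mir34b. Mir34b contributed 2.36 and 1.41 counts on the FVB/N side, under the limit of detection, and neither value reached 2 log2 units, which 215 of 17556 genes did. The median over all genes was 0.03 and over 134 microRNA genes 0.26. With 1 value per condition this difference could not be tested.

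In C57.D300.F2 both hairpins of the cluster had counts close to or above those of the F1 conditions. Mir34c was higher than in C57.CTL.F1 by 0.39 log2 units, a difference of 126 counts within its model SD of 187, and it differed from C57.D300.F1 by 9.13 counts, a log2 ratio of -0.02, which became 0.14 when totals were made equal and 0.16 under upper-quartile scaling. Relative to the microRNA genes, whose totals were 1.47-fold higher in C57.D300.F2 than with vehicle, the difference from C57.CTL.F1 changed sign to -0.17. Mir34b was 1.15 log2 units higher than in C57.CTL.F1, and its difference of 22.1 counts exceeded the model SD of 15.1, with a whole-count ratio of 2.29 (counting interval 1.27 to 4.32). Relative to the microRNA genes, with their 1.47-fold higher totals, this rise was smaller. Against C57.D300.F1 Mir34b was higher by 0.54, and relative to the microRNA genes its log2 ratio was -0.03. None of the 2 members tested passed the threshold in either comparison, as 4.19% of 17114 genes did against C57.CTL.F1 and 3.64% of 17133 against C57.D300.F1. The members' medians were 0.77 and 0.26, beside 0.51 and 0.34 for the microRNA genes and -0.04 and -0.05 for all genes.

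The germ cell messages had lower counts in that generation, while Mir34c differed from both F1 conditions of C57BL/6J by less than the model SD. Of 10 markers of haploid germ cells (Prm1, Prm2, Tnp1, Tnp2, Odf1, Akap4, Ldhc, Acrv1, Spata18 and Smcp), none was at 0 in any condition, as the label of the tissue implies. All 10 had lower counts in F2 than with vehicle in F1, with log2 ratios between -1.80 and -0.40 and a median of -1.03, and none passed the threshold. Mir34c lay above each of the 10. Their summed counts were 84701, 71160 and 28653 in the 3 conditions of C57BL/6J, and Mir34c had 4.82, 7.63 and 18.6 counts per 1000 of them. With equal marker sums, the log2 ratio of F2 over vehicle F1 was 1.94 for Mir34c and 2.54, past the threshold, for Mir34b. In bulk RNA, fewer cells of a type and less RNA per cell cannot be told apart.

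On the scale of the table, Mir34c and Mir34b differed most between the strains. Without DEHP, Mir34c was 29.9-fold lower in FVB/N (FVB.CTL.F1) than in C57BL/6J (C57.CTL.F1) by the estimated counts, a log2 ratio of -4.80, and the difference of 395 counts exceeded its model SD of 129. The whole-count ratio of 29.1 had a counting interval of 17.2 to 53.8. Mir34b had a log2 ratio of -2.44, and its whole counts of 17 and 2 gave a ratio of 8.50 with a counting interval of 2.02 to 75.9. With the conditions scaled to equal sums of the germ cell markers, the log2 ratio of Mir34c was -1.28, short of the threshold, and that of Mir34b turned to 0.65, from a count under the limit of detection. Mir34b was also short of the threshold relative to the microRNA genes, at -1.70, and with a pseudocount of 10, at -1.14. As deposited, both members tested were past the threshold, both lower in FVB/N. Mir34b met the minimum of 10 counts only in C57.CTL.F1, so its call and its direction are no separate support. Only Mir34c had at least 10 counts on both sides. Over all 17086 genes 10.3% passed the threshold and 8.88% were lower, and over 120 microRNA genes 42 were lower and 6 higher. The members' median log2 ratio was -3.62, or -3.49 with counts under 3 set to 3, beside -1.03 for the microRNA genes and -0.03 for all genes.

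With DEHP the same pair of genes was lower in FVB/N again. Mir34c was 42.8-fold lower in FVB.D300.F1 than in C57.D300.F1, a log2 ratio of -5.31, and the difference of 530.4 counts exceeded its model SD of 144. Mir34b had a log2 ratio of -3.52, with whole counts of 27 and 1 and a counting interval of the ratio from 4.45 to 1105. It was short of the threshold, at -1.69, with a pseudocount of 10, and at -0.98 with equal marker sums. Mir34b met the minimum count only in C57.D300.F1, so here too its direction is no separate support. In this comparison 10.3% of 17377 genes passed the threshold and 7.67% were lower, as were 38 of 129 microRNA genes. The members' median was -4.42 (-4.05 with counts under 3 set to 3), and that of the microRNA genes -0.71.

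C57.D300.F2 is the C57BL/6J condition whose libraries, like those of FVB/N, were new. It differs from both FVB/N conditions in generation, and from FVB.CTL.F1 also in the DEHP exposure of its lineage. Set against it, Mir34c was 39.1-fold lower in FVB.CTL.F1 and 42.1-fold lower in FVB.D300.F1, with log2 ratios of -5.19 and -5.29. The difference was as large within this set of libraries, where strain cannot be told apart from generation or, for FVB.CTL.F1, from exposure. Mir34b had log2 ratios of -3.58 and -4.06, again against fewer than 3 counts. Its whole-count ratios were 19.5 (counting interval 5.05 to 167) and 39.0 (counting interval 6.60 to 1579). Both members tested, Mir34b only through its counts in C57.D300.F2, were lower in each of these comparisons. There 3.21% and 3.6% of genes passed the threshold and 2.5% and 2.02% were lower. Among the microRNA genes 53 of 130 and 43 of 132 were lower. Counted from the lowest log2 ratio, Mir34c stood 11th of 120 microRNA genes between the vehicle conditions of both strains, 4th of 129 with DEHP, and 3rd of 130 and of 132 against C57.D300.F2.

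**Figure D2:**
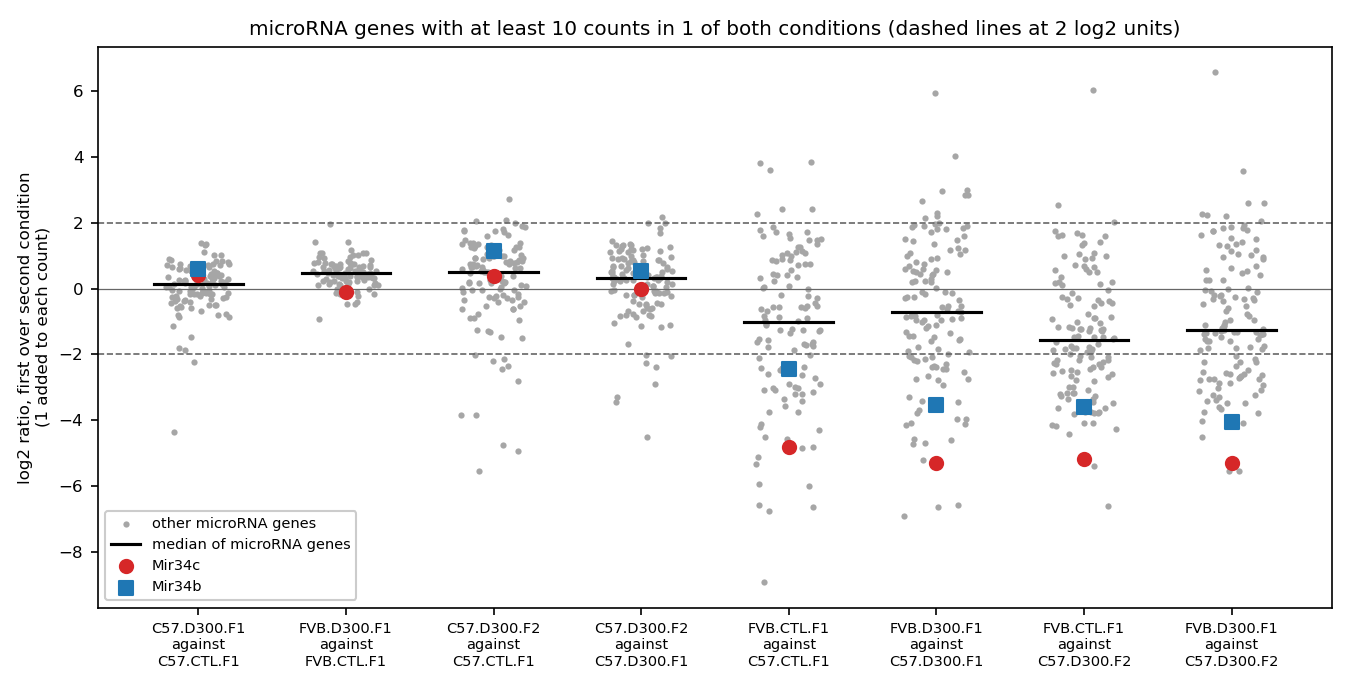
Log2 ratios (vertical axis, first over second condition, 1 added to each count) of microRNA genes with at least 10 counts in 1 of both conditions, in 8 comparisons (horizontal axis). Grey points are single genes, spread sideways at random, black bars are medians, the red circle is Mir34c and the blue square Mir34b. Mir34c lay between -0.10 and 0.41 in the 4 comparisons within a strain and between -5.31 and -4.80 in the 4 between strains.

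Messages of germ cells moved with this difference. In FVB/N the 10 haploid markers summed to 6937 counts with vehicle and 8292 with DEHP, 12.2-fold and 8.58-fold fewer than in the matching F1 conditions of C57BL/6J. Without DEHP all 10 were lower in FVB/N and 9 were past the threshold, among them Smcp, a protein of the mitochondrial sheath, with 35149 and 1799 counts, and the protamine gene Prm2, with 20903 and 1584. With DEHP 5 of the 10 were past the threshold. Over all genes 8.88% without DEHP and 7.67% with it were lower by the threshold. Mir34c had a lower log2 ratio than each of the 10 markers in every comparison between the strains, the lowest marker being at -4.64 without DEHP and at -4.12 with it. Without DEHP its counting interval, 17.2- to 53.8-fold, takes in Spata18 at 25.3-fold and Smcp at 19.5-fold. The order of Mir34c against both cannot be read there. Per 1000 marker counts Mir34c had 1.97 in FVB/N with vehicle and 1.53 with DEHP. Relative to the marker sum it was thus 2.45-fold lower than in C57.CTL.F1, short of the threshold, and with DEHP 4.99-fold lower than in C57.D300.F1, past it. Against C57.D300.F2 it was 9.47-fold lower with vehicle and 12.2-fold lower with DEHP. The sum was carried by Smcp, Odf1 and Prm2. The part of the germ cell content in the result was not tested.

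**Figure D3:**
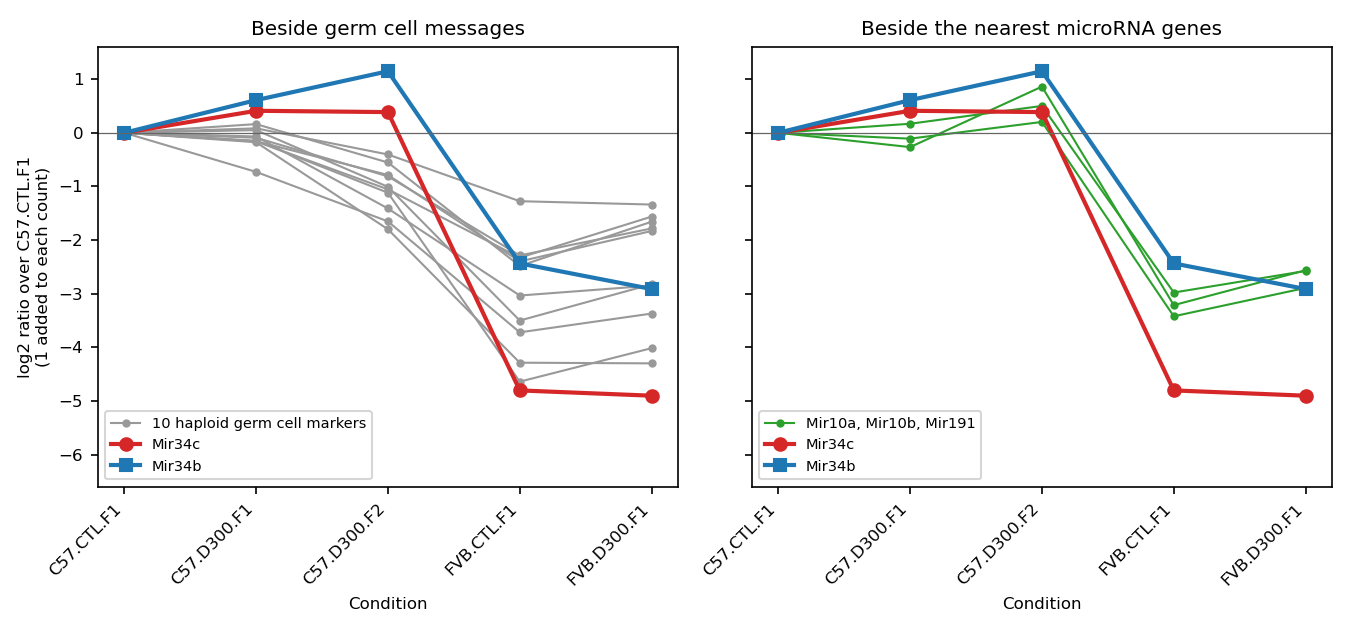
Log2 ratio over C57.CTL.F1 (vertical axis, 1 added to each count) in the 5 conditions (horizontal axis), with lines joining the values of 1 gene. Mir34c is red, Mir34b blue, the 10 haploid germ cell markers grey (left) and Mir10a, Mir10b and Mir191 green (right). In C57.D300.F2 the markers lay between -1.80 and -0.40 and Mir34c at 0.39. In FVB.CTL.F1 Mir34c at -4.80 lay below all 10 markers, but its counting interval took in the lowest ones, Spata18 and Smcp.

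Relative to the summed counts of the microRNA genes the strain difference was larger than 10-fold throughout. Mir34c made up 3.19, 4.33 and 2.83 of every 1000 microRNA counts in C57BL/6J, and 0.205 and 0.114 in FVB/N. Without DEHP the share in FVB/N was 15.6-fold below that in C57BL/6J, and it was 38.0-fold lower with DEHP in F1. On this scale the log2 ratio of Mir34c without DEHP was -3.91. That of Mir34b was -1.70 and no longer past the threshold. The microRNA sum differed in make-up between the strains. With vehicle, Mir10a and Mir10b had 31190.4 and 48454.5 of its 128191 counts in C57BL/6J, and 2909.5 and 5222.3 of 66713 in FVB/N. Unscaled log2 ratios without DEHP were -4.80 for Mir34c and -3.42, -3.21 and -2.98 for Mir10a, Mir10b and Mir191. The median was -1.03 over the 120 microRNA genes tested. How far Mir34c fell below other microRNA genes thus depended on which were compared.

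**Figure D4:**
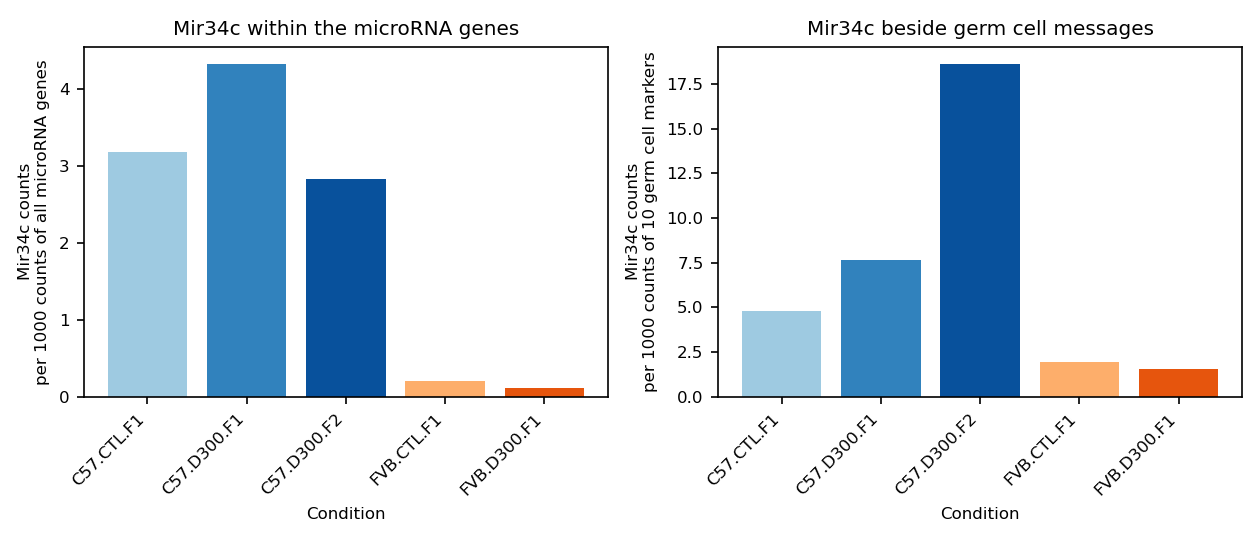
Counts of Mir34c per 1000 counts of all microRNA genes (left vertical axis) and per 1000 summed counts of 10 haploid germ cell markers (right vertical axis) in the 5 conditions (horizontal axes), as bars without error since each is 1 value. The FVB/N conditions were lowest on both scales, with 0.114 to 0.205 on the left and 1.53 to 1.97 on the right, and C57.D300.F2 was highest on the right at 18.6.

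Other tissues were unevenly present in the same conditions. Summed over 7 liver markers such as Alb, C57BL/6J had 184760 counts in F1 with vehicle, 162325 in F1 with DEHP and 4274 in F2, against 960 and 638 in FVB/N. The 5 seminal vesicle markers reached 214761 counts in C57.CTL.F1 and at most 496 elsewhere, and the 9 epididymal markers 38333 in FVB.D300.F1 and at most 338 elsewhere. The 5 markers of blood and leukocytes summed to 6873, 9847, 5808, 2579 and 4555 counts. Mir34c had 408, 543, 534, 13.7 and 12.7 counts in the same order. The part of these tissues in its level was not tested.

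Genes of the multiciliated cell, the other site where the family is known to be made, did not move as one. Of 8 such genes in the table, 7 had at least 10 counts in 1 of both vehicle conditions, with 2 lower in FVB/N by the threshold, none higher and a median of 0.34. Over all genes 8.88% were lower by the threshold and the median was -0.03, and 7 genes are too few to set against that share. The 2 were Foxj1, a regulator of motile cilia, with 28.5 and 3.67 counts, and Tekt1, a tektin of sperm tails and cilia, with 89.4 and 20.5. Mcidas and Ccno, which drive the multiplication of centrioles, had more counts in FVB.CTL.F1, 43.0 against 19.9 and 152 against 75.3. Deup1 was not found in the table.

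Genes with a pattern like that of Mir34c were sought only among those with enough counts in every condition, so a gene with as deep a step between the strains entered only from a high level. By the root mean square difference of centred log2 counts over the 5 conditions, the nearest of 8105 genes with at least 100 counts in every condition were Gsg1 at 0.89, Wbscr25 at 0.95 and Klhl10 at 0.98. Gsg1, a germ cell gene, had 2385, 1954 and 1054 counts in C57BL/6J and 116 and 157 in FVB/N. Klhl10, which is needed for spermatid maturation, had 2246, 2108, 979, 124 and 179 counts. Both were lower in C57.D300.F2 than in the other C57BL/6J conditions, where Mir34c was not. Among 62 microRNA genes with at least 10 counts in every condition the nearest were Mir10a at 0.98, Mir191 at 1.06 and Mir10b at 1.09, and Mir10a had 31190, 28919, 35896, 2909 and 4199 counts. These measures describe 5 values each and have no test.

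Of 28 other microRNA genes listed for comparison as those of sperm and the male tract, 26 were in the table. Of the 18 with enough counts in C57.CTL.F1 or FVB.CTL.F1, 13 were lower in FVB/N by the threshold and all 18 had a log2 ratio below 0, with a median of -3.06. Among all 120 microRNA genes tested, 42 were lower and 6 higher, with a median of -1.03, and 8.88% of all genes were lower. Some of the 18, such as Mir100 and Mir871, reached 10 counts only on the C57BL/6J side. The 13 included Mir122 and Mir192, which are also abundant in liver, with 60.0 counts against a listing at 0 and with 2535 against 4.23. The liver markers were lower in the same comparison, with 184760 and 960 counts, and their part in it was not tested. Mir871, an X-linked gene, had 397, 548, 256, 5.18 and 4.52 counts and thus a step between the strains like that of Mir34c. Mir741, also X-linked, had 108 and 169 counts in the F1 conditions of C57BL/6J but 6.52 in C57.D300.F2, and it was listed at 0 in FVB.CTL.F1. The microRNA genes Mir200a, Mir200b, Mir200c, Mir141 and Mir429, which mark epithelia, had a median of -0.23 in the same comparison, and Mir141 alone was past the threshold, with 445 and 67.4 counts.

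The transcription factors known to act upstream of the family differed less between the strains than Mir34c did. Of 11 listed, 10 had enough counts in C57.CTL.F1 or FVB.CTL.F1, and 1, Foxj1, was lower by the threshold, with a median of 0.21 over the 10. Over all genes 8.88% were lower by the threshold in this comparison and the median was -0.03, so 1 of 10 is near the general share. Rfx2, a regulator of spermatid development, had 234, 247, 172, 71.8 and 57.5 counts from C57.CTL.F1 to FVB.D300.F1. It was lower in FVB/N by 1.69 log2 units without DEHP and by 2.08 with it. Mybl1, a regulator of male meiosis, had between 74.4 and 105 counts in all 5 conditions. Trp53, the known activator of Mir34a, had 109 counts with vehicle in C57BL/6J and 131 in FVB/N.

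The genes that make and use microRNAs stayed within 1 log2 unit. All 13 listed, from the nuclease genes Drosha and Dicer1 to the Argonaute and Tnrc6 genes, were measured, and none passed the threshold in any comparison. Over all genes between 0.291% and 10.3% passed it, depending on the comparison. Between FVB.CTL.F1 and C57.CTL.F1 their log2 ratios lay between -0.68 and 0.68 with a median of 0.17. Over all comparisons the largest ratio was 0.97, for Prkra, a partner of Dicer, with 199 counts in FVB.D300.F1 and 101 in C57.D300.F2. With vehicle, Drosha had 321 counts in C57BL/6J and 515 in FVB/N, and Dicer1 had 1084 and 1265.

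The messages known to be targets of the shared seed did not pass the threshold either. Of 21 listed, all were in the table, and 0 of the 20 or 21 with enough counts were past it in any comparison. Over all genes the share past it ran from 0.291% to 10.3% by comparison, so few or none would be looked for among so few genes. Between the vehicle conditions of both strains, where Mir34c was 29.9-fold lower, 12 were higher and 8 lower, with a median log2 ratio of 0.12 and a range from -0.77 to 0.87. The median of all genes there was -0.03. Ccnd1, which encodes cyclin D1, had 613 counts in the first strain's vehicle condition and 494 in that of FVB/N. Notch1, a receptor of cell fate decisions, had 1081 and 1974. With DEHP in C57BL/6J the median of the 21 was 0.14, beside -0.01 for all genes. The RNA came from a mixture with other tissues, so these counts are not those of the cells that carried the microRNAs alone.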

How the data were processed

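Sperm RNA was depleted of ribosomal RNA, fragmented, treated with pyrophosphatase and kinase, and made into small RNA libraries. After adapter clipping, the authors aligned the reads to the mm10 build by TopHat, and genes were quantified by Cuffdiff. CASAVA 1.8.2 and Cufflinks also stand in the submitters' processing notes. The deposited signal is 1 estimated fragment count per gene and condition, scaled between libraries and not divided by length. The deposited variance of each count, a score of Cuffdiff's model, was used through its square root as the model SD. It is not a spread between mice. Gene annotation release and counting options are not given in the sources used here.

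Counts with a failed estimate (71 genes) were treated as missing. Log2 ratios used a pseudocount of 1, a minimum of 10 counts in 1 of both conditions and a threshold of 2 log2 units. Counting intervals were computed by the exact method (Clopper-Pearson, 95%) on counts rounded to whole numbers. These counts are scaled estimates that combine libraries and not observed read totals, so the intervals are approximate. Since each condition is 1 value, no test and no p-value was computed. Fold changes whose lower count was between 1 and 3 are given as whole-count ratios with their interval.

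The genes named are the 6 members, the genes at their loci, the fixed lists, and the 3 genes and 3 microRNA genes nearest in pattern to each member with at least 10 counts in every condition. Members and lists were chosen with earlier results of these data known. The comparison with C57.D300.F2 as the C57BL/6J side and the scaling to germ cell markers were chosen after seeing the data. The alternatives were 4 other scalings of the conditions, a pseudocount of 0.1 or 10, no minimum count or one of 100, 1 log2 unit as the threshold, and a difference that also exceeds its model SD. The procedure was tested on simulated data. The tools were pandas 2.3.3, numpy 2.4.6, matplotlib 3.10.9 and scipy 1.17.1 under Python 3.11.15.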

Additional observations from a re-analysis of the deposited data

How the results depend on the processing

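No paired analysis was possible because the values used combine the 5 libraries of a condition, and leaving out single libraries was not run for the same reason. Values counted as moved when they shifted by over 0.5 log2 units or 1.5 times, and the cause was not tested beyond what each alternative changes by construction.

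Scaling to equal microRNA totals moved the members' median to -0.80 for DEHP in FVB/N, to 0.22 and -0.32 for C57.D300.F2 against vehicle and exposed F1, and to -2.80 between the vehicle conditions of both strains, where 1 of the 2 members stayed past the threshold. Scaling to germ cell markers moved it to 2.24 and 1.52 for C57.D300.F2 (1 member past the threshold against vehicle), to -1.28 (0 members) between the strains without DEHP and to -2.29 (1 member) with DEHP, both from Mir34c alone since Mir34b then had under 10 counts on each side, and on this scale Mir34b reversed to 0.65 in the comparison without DEHP. The strain by exposure difference became -1.69 and -1.63 for Mir34b under these scalings, -0.55 with 10 counts added, and -1.24 and -1.01 for Mir34c. These scalings also shift the median of all genes between the vehicle conditions of both strains, by 0.96 and 3.53 log2 units. The other 3 scalings (equal totals, upper quartile, median-of-ratios factors) moved none of the members' medians or counts, and shifted the median of all genes by up to 0.32.

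With a pseudocount of 10 the strain medians were -2.64 without DEHP and -3.15 with it, and with a minimum of 100 counts, which only Mir34c met, they were -4.80 and -5.31, each with 1 member past the threshold. Without a minimum they were -2.14 and -2.94. With C57.D300.F2 as the C57BL/6J side and the other settings as reported, the median without DEHP was -4.39. At 1 log2 unit, 1 member was past the threshold in F2 against vehicle F1.

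The number of microRNA genes past the threshold followed the settings. For C57.D300.F1 against C57.CTL.F1 the 2 genes became 1 with a pseudocount of 10, 0 with a minimum of 100, 4 without a minimum and 12 at 1 log2 unit. In FVB/N with DEHP the 0 genes became 1 with a pseudocount of 0.1, 3 without a minimum and 10 at 1 log2 unit. For C57.D300.F2 the 14 and 9 genes became 6 and 3 with a pseudocount of 10, 5 and 4 with a minimum of 100, and 50 and 35 at 1 log2 unit. Between strains the 48 genes without and with DEHP became 30 and 25, 23 and 21, and 85 and 84 under the same settings.

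Depth limits Mir34a, Mir449b and Mir449c in every condition and Mir34b and Mir449a in FVB/N, where counts did not exceed 3. The model SD is not a measured spread, so these comparisons describe the pooled conditions and not the mice.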
